A study of Mus musculus with 18 samples.

Results

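The superoxide dismutases, catalase, glutathione peroxidases and peroxiredoxins are the enzymes that dispose of superoxide and of the peroxides formed from it. The 10 genes Sod1, Sod2, Sod3, Cat, Gpx1, Gpx3, Gpx4, Prdx1, Prdx3 and Prdx6 were chosen by name, among 34509 gene symbols in the table of B6 and NZW, and all 10 had at least 1 probe there. They had 12 probes of 46632, since Sod1 and Prdx6 had 2 probes each. For 7 of the 12 probes (Cat, Gpx1, Gpx4, Prdx3, Sod2, Sod3 and 1 Sod1 probe) the same search key was found once in the table of BALB/c, DBA1 and 129/svj, so that these were read in all 5 strains. The probes of Gpx3, Prdx1 and Prdx6 and the brighter Sod1 probe carried no shared key and were read in B6 and NZW only.

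Superoxide dismutases turn superoxide into hydrogen peroxide, Sod1 in the cytosol, Sod2 in mitochondria and Sod3 outside the cell. Hydrogen peroxide is then removed by catalase in peroxisomes, by glutathione peroxidases, which are selenoproteins that spend glutathione, and by peroxiredoxins, which are mostly recharged by thioredoxin. The kidney cortex is rich in mitochondria and peroxisomes, and its tubule is the main source of the secreted glutathione peroxidase of plasma, Gpx3.

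Total RNA of the kidney cortex had been measured on Illumina mouse BeadChips in 15 mice aged 2 months, 3 of each strain, all of them challenged with antibody against the glomerular basement membrane (anti-GBM). The labels call B6 and BALB/c (written BALB/C there) resistant, and NZW, DBA1 and 129/svj sensitive, to the nephritis that this antibody causes, and the comparisons ask how these strains differ. No unchallenged mice were among the samples, so a difference between strains that is present without the antibody and a difference in the response to it cannot be told apart. The sex of the mice and the time after the challenge are not given in the sources used here. The strains are inbred lines that differ in many genes besides those that set the severity of nephritis. Of the 18 arrays, 6 (B6 and NZW) were in one table and 12 (the other 3 strains, with a repeat array of mouse 1 of each) in the other, and strains were compared within a table. Median signals per array ran from 81.1 to 89.8 for B6 and NZW and from 118.5 to 151.6 for the other strains, and detection above the negative controls covered between 30.5% and 36.4% of probes. Log2 intensities of mice of one strain correlated at 0.960 to 0.993 over the tested probes. The labelled tissue showed its markers, with 14 of 16 probes of the proximal tubule list and 5 of 8 of the podocyte list detected in every B6 mouse. Intensities are given as log2 values after background correction and quantile normalization, levels of different probes are not compared, and a difference of 1 on this scale is a 2-fold difference. Nothing in the labels says whether mice of a strain were litter mates or were processed together, so the p-values measure only the spread between these samples.

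The probes called between B6 and NZW, described below, were those of Prdx1, Sod3 and Sod1. The promoters of Prdx1 and Sod1 are shown because they were the only 2 of the 8 genes with an entry in which the 250 bases before the start held the core of the antioxidant response element, through which the factor Nrf2 acts, TGACNNNGC on either strand. Bases are from RefSeq (GRCm38.p6, the reference strain, plus strand), capitals mark the match, and both matches lie on the opposite strand. The windows are chr4:116685349-116685598 for Prdx1, where the match ends 124 bases before the start, and chr16:90220512-90220761 for Sod1, where it ends 47 bases before it.
Prdx1: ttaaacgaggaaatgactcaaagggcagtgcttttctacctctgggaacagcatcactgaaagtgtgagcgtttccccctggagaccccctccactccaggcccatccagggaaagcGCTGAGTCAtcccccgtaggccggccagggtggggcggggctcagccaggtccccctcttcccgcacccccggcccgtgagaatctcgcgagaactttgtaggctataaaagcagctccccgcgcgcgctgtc
Sod1: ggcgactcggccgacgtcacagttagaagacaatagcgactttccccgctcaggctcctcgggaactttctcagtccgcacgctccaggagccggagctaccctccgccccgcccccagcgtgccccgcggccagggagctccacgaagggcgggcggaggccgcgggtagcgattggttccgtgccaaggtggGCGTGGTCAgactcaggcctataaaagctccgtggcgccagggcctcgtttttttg
Read on their own strand, the matches are TGACTCAGC in Prdx1 and TGACCACGC in Sod1. Such a match is common: 3338 of 32851 RefSeq windows of this length (10.2%) held at least 1, overlaps with other motifs not being considered. This is a share of windows, which came from 27025 genes, while the 8 genes are counted by gene. The share of genes with a match is not given. No match was found in the windows of Cat, Gpx1, Gpx3, Gpx4, Prdx3 and Sod2. Sod3 and Prdx6 had no entry and were not searched. Of the 2 genes with a match, Prdx1 was higher and Sod1 lower in B6.

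Between B6 and NZW, 3 of the 12 probes differed at an adjusted p below 0.05 (limma, Benjamini-Hochberg over 16756 probes), 1 higher and 2 lower in B6. The count was 1 without B6 mouse 1 or B6 mouse 2 and 2 without any of the other mice. This is close to the background, since 18.8% of all tested probes passed in this comparison, 9.23% higher and 9.61% lower in B6. The median difference of the 12 probes was -0.02 and that of all tested probes -0.04. Over all tested probes 1547 were higher and 1610 lower in B6, against 1350 and 2271 when arrays were scaled by their 75th percentile. Without B6 mouse 1, 2 or 3 the total fell from 3157 to 1866, 1721 and 1906.

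Prdx1, a cytosolic peroxiredoxin and one of the most abundant, had the largest difference. Its log2 intensity was 14.28, 14.27 and 14.36 in the B6 mice and 13.12, 13.02 and 13.08 in the NZW mice. Every B6 mouse lay more than 1 log2 unit above every NZW mouse, while the mice of each strain lay within 0.10 of each other. The means were 14.30 ± 0.05 (SD, n = 3) and 13.08 ± 0.05 (SD, n = 3), a difference of 1.23 (SE 0.10), or 2.34-fold, with a limma adjusted p of 4.9e-05. It passed the threshold without any one of the 6 mice, the largest adjusted p being 6.9e-04. The value rests on a single probe, whose sequence was not available here, and it could not be read in the other 3 strains. Probes of the same gene could disagree between B6 and NZW, as those of Prdx2 did (below). A single probe therefore does not settle the size of a transcript difference, and why probes disagreed was not tested.

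Sod3, the secreted superoxide dismutase that is bound to the matrix of vessel walls, was lower in B6. The B6 mice had log2 intensities of 8.88, 9.01 and 9.28 and the NZW mice 9.97, 9.53 and 9.82. No B6 mouse reached an NZW mouse. The difference was -0.71 (SE 0.15), or 1.64-fold, with a limma adjusted p of 0.013. The adjusted p rose to 0.055 without B6 mouse 1 and to 0.052 without B6 mouse 2, and stayed under the threshold without each of the other 4 mice. By the plain two-sample test it was 0.089. Sod3 is among the genes that the study had selected from these same arrays, so its difference is not independent evidence of a direction.

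Sod1, the copper-zinc enzyme of the cytosol, was lower in B6 by its brighter probe. Its values were 13.32, 13.41 and 13.45 in B6 and 13.78, 13.71 and 13.77 in NZW. The 2 strains did not overlap, and the difference of -0.36 (SE 0.10), or 1.29-fold, passed narrowly (limma adjusted p 0.036). It no longer passed when any single mouse was left out, with adjusted p-values of 0.052 to 0.13. The other Sod1 probe, designed on a RIKEN clone, was near the background at 5.51 to 5.99 in B6 and 5.45 to 5.98 in NZW, and its difference was 0.02 (95% interval -0.38 to 0.41).

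Sod2, the manganese enzyme of mitochondria, was at 11.81, 11.83 and 11.98 in B6 and at 12.15, 12.20 and 12.16 in NZW. The strains did not overlap, but the difference of -0.30 (SE 0.10) missed the threshold (limma adjusted p 0.080). It passed under 4 of 9 other settings, including the 75th percentile scaling, where it was -0.50 (adjusted p 0.024). Under that scaling the median of all tested probes was -0.13, so Sod2 lay below it by less than its full difference.

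**Figure D1:**
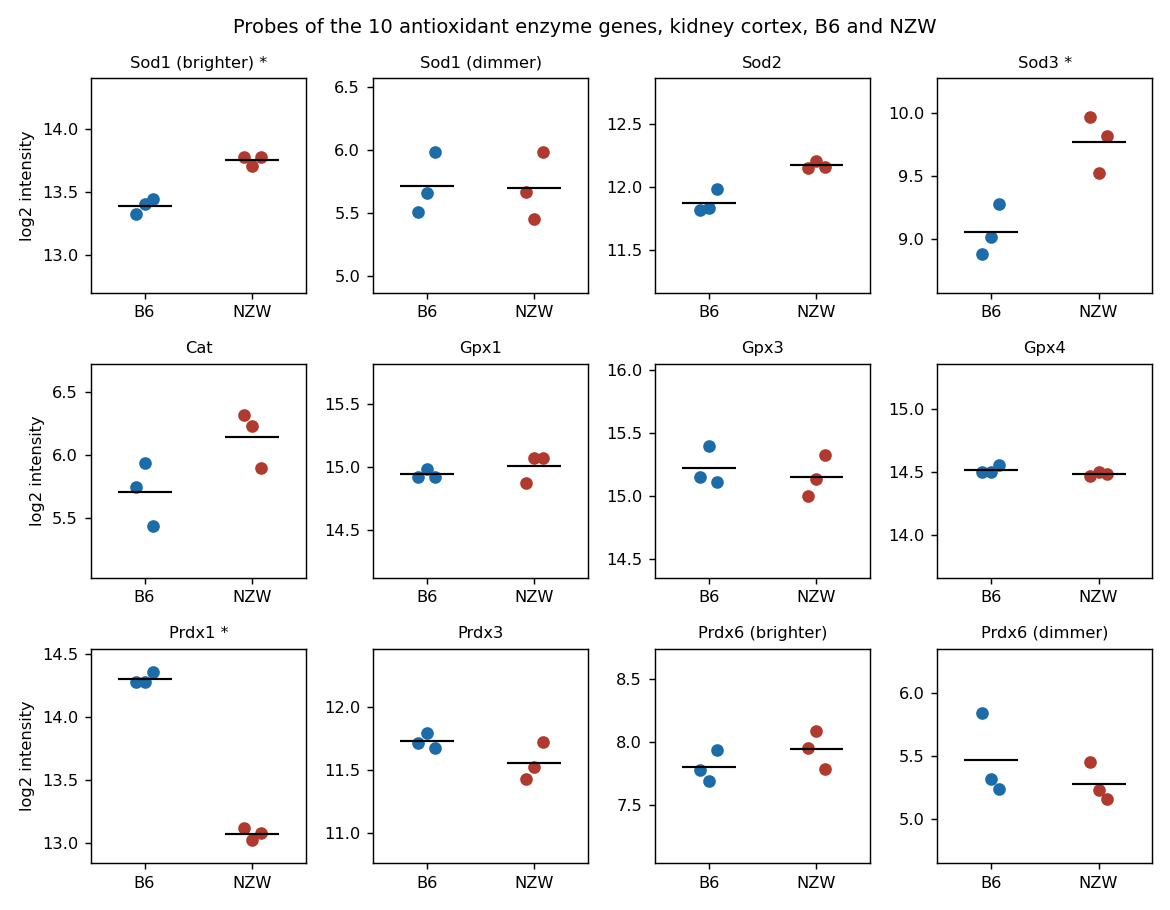
Log2 intensity of each of the 12 probes in the 3 B6 and 3 NZW mice, with 1 point per mouse and a line at the mean of the strain. All panels span 1.7 log2 units, and an asterisk marks an adjusted p below 0.05. The Prdx1 points are split by more than 1 unit, the Sod3 and brighter Sod1 points are split the other way, and the points of the glutathione peroxidases overlap.

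The glutathione peroxidases did not pass the test. Gpx1, the peroxidase of cytosol and mitochondria, had log2 intensities of 14.92, 14.99 and 14.92 in B6 and 14.87, 15.08 and 15.08 in NZW. Gpx4, which reduces lipid peroxides in membranes, was at 14.50, 14.50 and 14.55 in B6 and at 14.47, 14.50 and 14.49 in NZW. Gpx3 was at 15.22 ± 0.16 in B6 and 15.15 ± 0.16 in NZW (SD, n = 3 each). In all 3 genes the values of the strains overlapped or met. The 95% intervals of the differences reached from -0.31 to 0.18 for Gpx1, from -0.23 to 0.36 for Gpx3 and from -0.18 to 0.25 for Gpx4. The 3 probes ranked 23rd, 13th and 75th of 46632 by mean signal, close to the top of the scale. Under the 75th percentile scaling the differences of Gpx3 and Gpx4 changed sign, to -0.12 and -0.23, without passing.

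Catalase was measured near the background. Its only probe was at 5.75, 5.94 and 5.43 in B6 and 6.32, 6.23 and 5.90 in NZW, and the ranges overlapped at the edge. The difference was -0.44 (SE 0.16, limma adjusted p 0.10). In the second table this probe was detected in 1 of 9 mice, a DBA1 mouse, and was not tested there. Its values were 5.38, 5.48 and 5.26 in BALB/c, 5.25, 5.96 and 5.45 in DBA1 and 5.34, 5.24 and 5.35 in 129/svj. The repeat arrays of mouse 1 differed by up to 0.70 for this probe.

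Prdx3, the peroxiredoxin of mitochondria, was at 11.72, 11.80 and 11.68 in B6 and at 11.43, 11.53 and 11.72 in NZW. The ranges overlapped, and the difference of 0.17 (SE 0.11) did not pass (limma adjusted p 0.35). Prdx6, which also acts on phospholipid peroxides, had 2 probes with differences of -0.14 and 0.19, neither of which passed (limma adjusted p 0.49 and 0.50). The brighter of them lay at 7.69 to 7.94 in B6 and at 7.79 to 8.09 in NZW.

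Among BALB/c, DBA1 and 129/svj, 0 of the 6 tested probes passed in any of the 3 comparisons of strains. The background was 5.75% of 15818 tested probes for BALB/c against DBA1, 4.82% for BALB/c against 129/svj and 4.48% for DBA1 against 129/svj. These backgrounds moved with single mice. Of 909 probes called for BALB/c against DBA1, the number was 502, 452 and 556 without BALB/c mouse 1, 2 or 3 and 541 without DBA1 mouse 2. Of 763 for BALB/c against 129/svj, the numbers were 477, 443 and 499 without BALB/c mouse 1, 2 or 3 and 486 without 129/svj mouse 1. Of 709 for DBA1 against 129/svj, they were 426 without 129/svj mouse 1 and 457 without DBA1 mouse 2. At an unadjusted limma p below 0.05, 1 of the 6 probes passed in BALB/c against DBA1, 0 in BALB/c against 129/svj and 1 in DBA1 against 129/svj, in each case Sod3. Of all tested probes, 18.3%, 15.2% and 13.8% passed at that level, so these counts are near the background. The plain two-sample test, after adjustment, also called 0 in each.

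Sod3 had its highest values in DBA1. Its log2 intensity was 8.91, 9.15 and 8.98 in the DBA1 mice, 8.39, 8.55 and 8.63 in the BALB/c mice and 8.69, 8.33 and 8.74 in the 129/svj mice. The DBA1 mice lay above all other mice of the table, and the values of BALB/c and 129/svj overlapped. BALB/c minus DBA1 was -0.49 (SE 0.15, limma adjusted p 0.11), and BALB/c minus 129/svj was -0.06 (SE 0.15, limma adjusted p 0.91, 95% interval -0.41 to 0.28). DBA1 minus 129/svj was 0.43 (SE 0.15, limma adjusted p 0.22).

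The order of Sod2 was BALB/c, DBA1 and 129/svj from high to low, and no neighbours passed the test. Its values were 12.05, 12.04 and 11.94 in BALB/c, 11.98, 11.89 and 11.75 in DBA1 and 11.91, 11.69 and 11.72 in 129/svj. Every BALB/c mouse was above every 129/svj mouse, with a difference of 0.24 (SE 0.13, limma adjusted p 0.46).

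Gpx1 was at 13.99, 13.85 and 13.93 in BALB/c, 13.57, 13.43 and 14.22 in DBA1 and 14.04, 13.78 and 14.16 in 129/svj. DBA1 mouse 3 was the highest of the 9 mice and the other 2 DBA1 mice the lowest. The DBA1 mean of 13.74 had the widest spread among the well detected member probes in this table (SD 0.42, n = 3). Gpx4 was at 13.18, 13.18 and 13.23 in BALB/c, 13.36, 13.34 and 12.98 in DBA1 and 13.29, 13.17 and 13.43 in 129/svj. The strains overlapped for both genes, and their differences lay between -0.25 and 0.18.

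Prdx3 was at 11.11, 11.17 and 11.09 in BALB/c, 11.07, 10.92 and 10.78 in DBA1 and 11.06, 10.91 and 10.98 in 129/svj. Every BALB/c mouse was above every mouse of the other strains by a small margin, with differences of 0.20 (SE 0.13) from DBA1 and 0.14 (SE 0.13) from 129/svj that did not pass (limma adjusted p 0.47 and 0.70). The dimmer Sod1 probe was at 5.71 to 6.48 in these 9 mice, where BALB/c mouse 3 had the highest value and the next was 6.01. Repeat arrays of mouse 1 differed by 0 to 0.18 for Gpx1, Gpx4, Prdx3, Sod2 and Sod3.

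**Figure D2:**
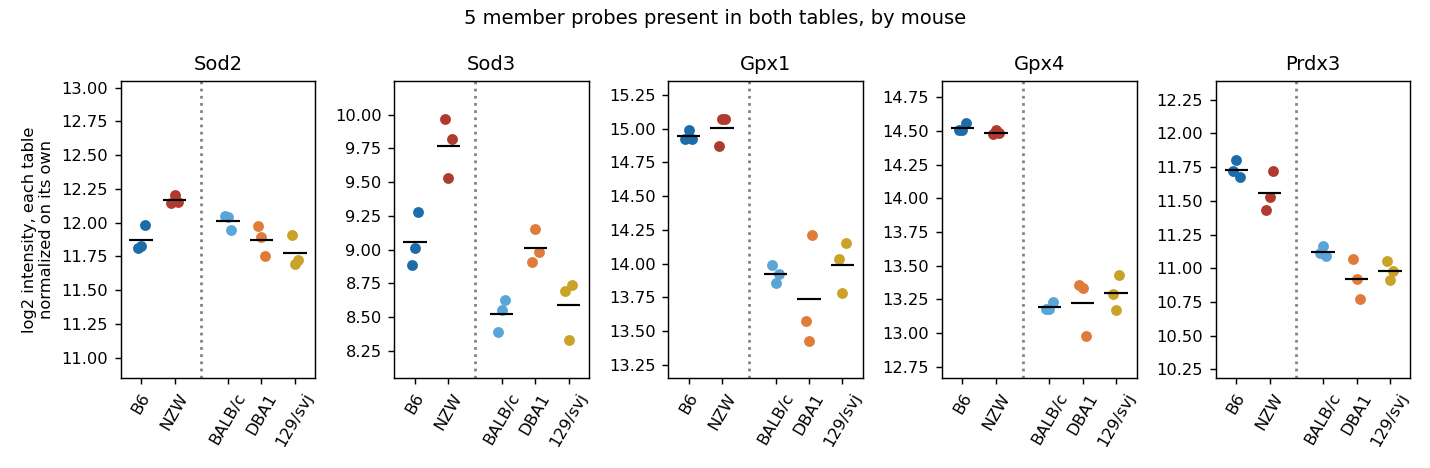
Log2 intensity of the 5 well detected probes that were read in all strains, with 1 point per mouse and a line at the mean of the strain. The dotted line parts the 2 tables, which were normalized separately, so levels compare only on one side of it, and each panel spans 2.2 log2 units. Sod3 is high in NZW on the left and in DBA1 on the right, with 129/svj beside BALB/c.

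Averaged over the tables, the difference of resistant minus sensitive strains was called for Sod3 alone among the 7 paired probes. The background was 12.0% of 6896 paired probes tested, and the median of the 7 was -0.02 beside -0.01 for all. Sod3 was lower in the resistant strains, with a difference of -0.48 (SE 0.11), or 1.39-fold, with a limma adjusted p of 0.0070, and its adjusted p was at most 0.028 when any of the 15 mice was left out. In the same fit the difference was -0.68 (adjusted p 0.011) for B6 against NZW, where 9.83% of the paired probes passed, and -0.27 (adjusted p 0.27) for BALB/c against the mean of DBA1 and 129/svj, where 9.64% passed, and the difference between these was not called (0.41, SE 0.21, adjusted p 0.28). The sensitive strain 129/svj was at the level of the resistant BALB/c, so Sod3 did not separate all resistant from all sensitive strains. With strain as a random block, the value was -0.45 and the limma adjusted p 0.19. This fit takes 1 correlation between mice of a strain for all probes. Its degrees of freedom still count mice, so it is not a test with strains as the replicates. The plain two-sample test, which pools the tables, gave -0.40 and an adjusted p of 0.43.

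The other 6 paired probes were not called. Prdx3 came nearest at 0.18 (SE 0.08, limma adjusted p 0.17, 95% interval 0.01 to 0.35), higher in the resistant strains. Cat was at -0.24 (SE 0.12, limma adjusted p 0.24) and passed the filter through B6, NZW and 1 DBA1 mouse. The 95% intervals were -0.21 to 0.10 for Sod2, -0.25 to 0.21 for Gpx1 and -0.18 to 0.18 for Gpx4.

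For Sod2 the within-table differences had opposite signs in the joint fit, -0.29 (SE 0.11) for B6 against NZW and 0.18 (SE 0.10) for BALB/c against the mean of DBA1 and 129/svj. The difference between them was 0.47 (SE 0.15), with a limma adjusted p of 0.058, beside a background of 10.3% of the 6896 probes. No paired probe of the 7 was called for such a difference, and 1, Sod2, was at an unadjusted limma p below 0.05, a level that 22.1% of all 6896 probes reached. The number called over all probes was 466 without B6 mouse 2, beside 711. Under 7 of 9 other settings Sod2 did pass, with adjusted p-values of 0.011 to 0.050, so this call depends on the processing.

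**Figure D3:**
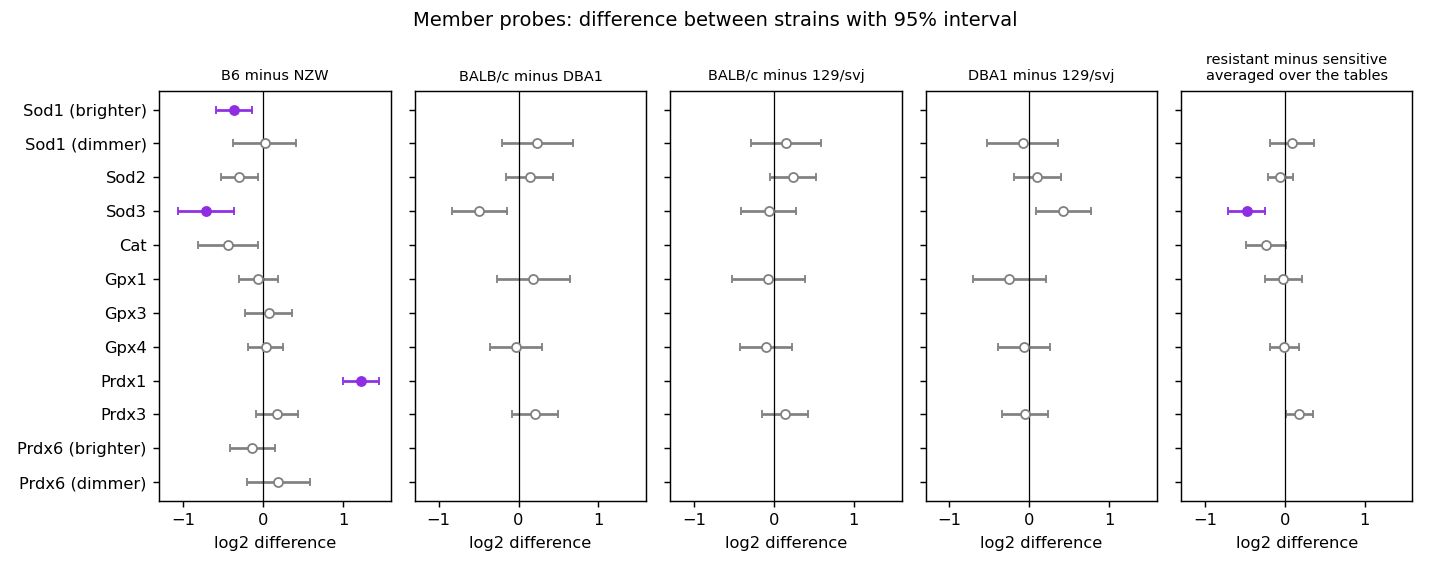
Difference in log2 intensity for each probe in 5 comparisons, as a point with its 95% interval from limma, and filled where the adjusted p is below 0.05. Prdx1 stands at 1.23 for B6 minus NZW, and Sod3 is filled, below 0, in the first and last panels. Without being called, the Sod3 interval also lies below 0 for BALB/c minus DBA1 and above 0 for DBA1 minus 129/svj. Probes without a point were not measured or not tested in that comparison.

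Markers of other cells moved with some of these differences, and their part in the results was not tested. In bulk tissue, fewer cells of a type and less RNA per cell cannot be told apart. As the background for the counts below, 9.23% of all tested probes were called higher and 9.61% lower in B6 than in NZW. For BALB/c, 5.75% were called against DBA1 and 4.82% against 129/svj. The summed signal of the proximal tubule list was 83524 to 97507 in B6 and 106370 to 112229 in NZW, with 6 of its 15 tested probes lower in B6 and 0 higher, the direction of Sod1 and Sod3. The tubule injury list summed to 8849 to 17199 in B6 and 7135 to 9188 in NZW, with 4 of 7 tested probes higher and 1 lower in B6. The 1 lower was Havcr1, which had the largest difference of the list (-2.77, limma adjusted p 0.013), so the injury markers did not go 1 way. The macrophage list summed to 3877 to 7047 in B6 and 2840 to 3558 in NZW, with 1 of 10 tested probes higher. The smooth muscle and mesangium list was higher in B6 (10096 to 11756) than in NZW (7497 to 8520), opposite to Sod3. Which cells of the cortex made Sod3 was not measured. In the second table that list was at 10287 to 11898 in DBA1, 4459 to 6475 in BALB/c and 7216 to 10544 in 129/svj, with 2 of 3 tested probes lower in BALB/c than in DBA1. Both were probes of Ren1, renin, with differences of -1.17 and -1.04, while the Acta2 probe was not called. A Ren1 probe was also lower in BALB/c than in 129/svj (-0.83, limma adjusted p 0.029), where the Sod3 difference was -0.06. The sums of the distal tubule, podocyte, endothelium, neutrophil, lymphocyte and erythroid lists overlapped between B6 and NZW. Of the tested probes, 2 of 11 were higher and 1 lower in B6 in the distal tubule list, and 1 of 8 higher and 0 lower in the endothelium list. In the erythroid list 3 of 14 were higher and 0 lower, all 3 of them Hbb-b1 probes, 1 of which was 14.3-fold higher. The 5 neutrophil and 5 lymphocyte probes did not pass, with differences from -0.36 (Lck) to 0.60 (S100a9). Lymphocyte markers were near the background, with 6 of 11 probes detected in no B6 mouse and in no NZW mouse, and tubule injury markers had 5 of 12 such probes in each strain. Of the sex gene list, 2 of 10 probes were detected in every B6 and NZW mouse, 8 were detected in none, and neither of the 2 was called. The 2 were probes of Xist and of the Y gene Uty, and the sex of the mice was not read from them.

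Other redox genes were read as 6 lists. The superoxide dismutases with their copper chaperone Ccs had 2 of 5 tested probes lower and 0 higher in B6 than in NZW, the 2 being the Sod1 and Sod3 probes above, and a median difference of -0.30. Ccs itself did not differ, at 12.92 ± 0.15 and 12.97 ± 0.12 (SD, n = 3 each). The other glutathione peroxidases and peroxiredoxins had 3 of 9 tested probes higher and 0 lower, of which 2 were probes of Prdx2 and 1 was of Gpx6. Glutathione synthesis and recycling had 4 of 15 higher and 2 lower, and the thioredoxin system with its repair enzymes 3 of 12 higher and 2 lower. Selenoprotein supply had 1 of 8 higher and 2 lower, and the sources of superoxide and hydrogen peroxide 3 of 12 higher and 2 lower. The medians of these 5 lists were between -0.26 and 0.02, beside -0.04 for all tested probes. Of all tested probes in this comparison, 9.23% were called higher and 9.61% lower in B6. Whether the counts of the lists differ from these shares was not tested.

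The 3 largest fitted differences called in these lists were all higher in B6, and for Prdx2 and Maob the NZW side was at or near the background. Glrx1, glutaredoxin, which takes glutathione off proteins, was at 11.63 ± 0.06 in B6 and 6.75 ± 0.23 in NZW (SD, n = 3 each), a difference of 4.88. This value, like that of Prdx1, rests on a single tested probe. A probe of Prdx2, the peroxiredoxin abundant in red cells, was at 9.05 in B6 and not detected in NZW, at least 13.3-fold higher. It entered the test through the B6 mice alone. The Prdx2 probes disagreed, as a second was higher in B6 by 1.89 while the brightest was at 12.87 ± 0.10 in B6 and 13.04 ± 0.05 in NZW (SD, n = 3 each) and was not called. Maob, a monoamine oxidase that forms hydrogen peroxide at the mitochondrial surface, was at 8.93 ± 0.11 in B6 (SD, n = 3) and above the background in 1 of 3 NZW mice, so that its fitted difference of 3.78 is not an exact size. Srxn1, sulfiredoxin, which restores peroxiredoxins oxidized too far, is named in addition because all 3 of its probes were higher in B6, like Prdx1, and it was chosen after its values were seen. Its differences were 2.79, 1.47 and 3.38. The thioredoxin list that holds Srxn1 did not go 1 way. Its probes of the thioredoxin reductases Txnrd2 (-0.51) and Txnrd3 (-0.48) were called lower in B6. The median of that list was 0.006.

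In the table of BALB/c, DBA1 and 129/svj the lists held few called probes. Nnt, the mitochondrial transhydrogenase that supplies NADPH for glutathione, was not detected in 129/svj, and was at least 2.33-fold higher in BALB/c and at least 1.34-fold higher in DBA1. Gpx6, a glutathione peroxidase close in sequence to Gpx3, was likewise not detected in 129/svj, and was at least 1.70-fold higher in BALB/c and 1.79-fold higher in DBA1. The Nnt and Gpx6 probes entered the test through BALB/c and DBA1 mice alone. Both were dim there, with means in BALB/c and DBA1 of 6.88 and 6.09 for Nnt and of 6.43 and 6.51 for Gpx6. Txnrd3, a thioredoxin reductase, was lower in BALB/c than in DBA1 (difference -0.74). Averaged over the tables, the largest called differences were those of Glrx1 (2.26), the superoxide source Xdh (1.01) and Nnt (0.77). Each of these averages came from 1 table. Glrx1 was at 4.88 for B6 minus NZW but at 0.17 for BALB/c minus DBA1 and -0.25 for BALB/c minus 129/svj. Xdh was at 2.88 for B6 minus NZW but at -0.47 and -0.70 for BALB/c against DBA1 and 129/svj, neither of which passed. Nnt was at 0.02 for B6 minus NZW by the same probe, and its average rests on the second table, where 129/svj was not above the background.

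**Figure D4:**
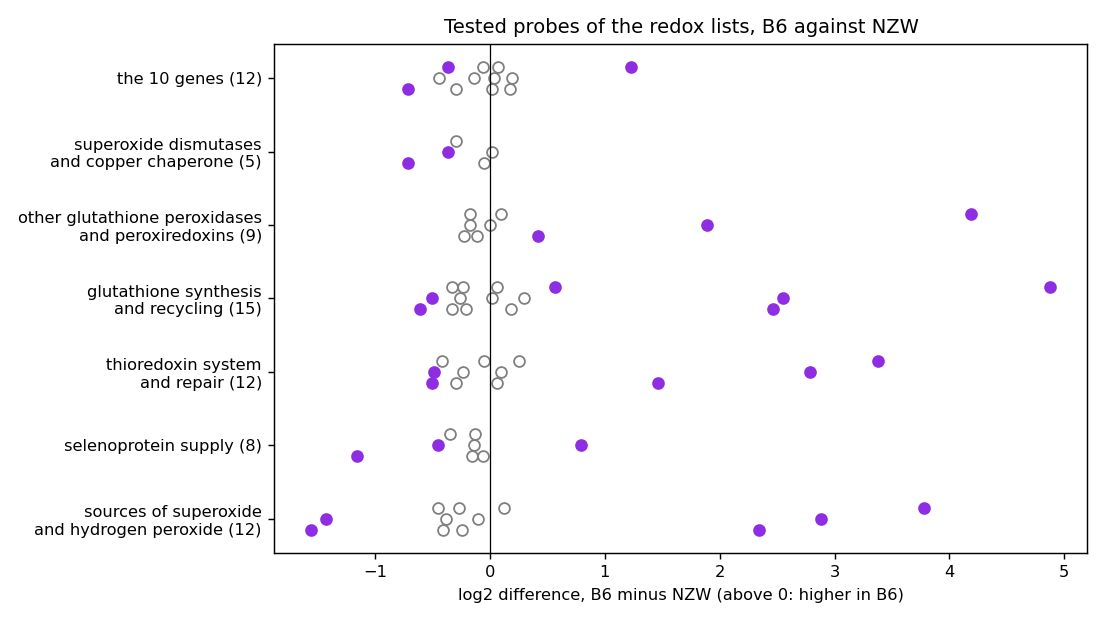
Difference in log2 intensity between B6 and NZW of every tested probe of the 10 genes and of 6 redox lists, with the number of probes in brackets, and filled where the adjusted p is below 0.05. Points are set at 3 heights within a list only to keep them apart. The 10 genes lie between -0.71 and 1.23, while single probes of the other lists reach 4.88.

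The pattern of the 3 genes with the widest range of strain means over the 9 mice of BALB/c, DBA1 and 129/svj was set against those of 5446 paired probes, as a description. The 9 points share a table and come in 3 strains. The probes most like Sod3 were those of Mdk (Pearson r 0.95), Tpm1 (0.94) and Fhl2 (0.94). Those most like Gpx1 were 2310036O22Rik (0.96), Acsl1 (0.94) and FR-alpha (0.93), and those most like Sod2 were Thap4 (0.95), A630084D02Rik (0.94) and 2300009A05Rik (0.93). The strain means of these 3 genes spanned 0.49 for Sod3, 0.25 for Gpx1 and 0.24 for Sod2.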

How the data were processed

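Kidney cortex RNA of 15 mice was read from 18 arrays in 2 tables. The authors deposited a signal intensity per probe from BeadStudio without normalization, with a detection p-value against negative controls and bead errors. The array methods refer to an earlier study, and no genome build is given in the sources used here. All columns of values belonged to the samples. The members and lists were chosen with earlier results of these data known. Groups came from the strain in the labels.

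With limma 3.58.1 (R 4.3.3), intensities received the normexp correction (offset 16) based on their detection p-values, were quantile normalized and taken to log2, which compresses differences of dim probes. Repeat arrays of mouse 1 were averaged, as were 11 probe identifiers listed 2 times. Probes detected (p-value up to 0.05) in 3 mice or more entered the test with lmFit and eBayes, two-sided, with Benjamini-Hochberg adjustment over all of them. Each table was fitted alone, with 1 coefficient per strain. A joint fit over 19886 pairs of probes with a search key unique in both tables gave the averaged difference of resistant minus sensitive strains and the difference of the within-table effects. No covariate was used. Markers and pathways were read as lists, and a probe not detected in a strain was given a bound against the lowest detected signal. Symbols are those of the arrays and can be old. Named in the text are all members, and from the lists the 3 probes with the largest called difference per comparison, except 1 that is not reported here. Tables and RefSeq promoters were read with Python 3.11.15 and pandas 2.3.3.

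On simulated data with 200 probes changed by 1 (log2), 68% were called for B6 against NZW over 16756 probes, 47.5% for BALB/c against DBA1 over 15818 and 94.5% for the averaged difference over 6896. The simulated strains did not differ otherwise, and the change was the same in every mouse of the resistant strains. The last share therefore takes mice and not strains as replicates. Apart from Prdx1, the members differed by less than 1, so these shares do not tell how often such differences would be called. The number of arrays limits the precision. Alternatives covered the background correction, scaling, joint normalization, filter, repeat arrays, variance trend, the plain two-sample test that the study's methods name, replicate number and strain as blocks, and each mouse left out.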

Additional observations from a re-analysis of the deposited data

How the results depend on the processing

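The Prdx1 difference kept its direction and its call in 8 of 8 alternatives that could hold it and without each of 6 mice. The count of called member probes for B6 minus NZW was 1 when the tables were normalized together, where only the paired probes were tested, and 1 to 2 without single mice. All probes called were then 1345 and 1721 to 2615, beside 3157. The replicate number did not pair the mice (correlations of same-numbered deviations from -0.26 to 0.39); as a replicate block it put Sod1 at an adjusted p of 0.091 and changed no other member call. For the averaged difference of resistant minus sensitive strains the count was 0 by the two-sample test, which pools the tables, 0 with strain as a random block, and 1 without any single mouse. All probes called were then 32 and 105, beside 827. The count for the difference of the within-table effects, in each case Sod2, was 1 with an offset of 50, with no background correction, with 75th percentile scaling, with separate normalization, with detection in every mouse, with no filter and with the intensity trend, and 0 to 1 without single mice. Detection in every mouse, joint normalization or the two-sample test left 333 to 587 (BALB/c against DBA1), 308 to 466 (BALB/c against 129/svj) and 218 to 368 (DBA1 against 129/svj) of 909, 763 and 709 probes called.

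Read by its other probe, Sod1 was at 0.017 and Prdx6 at 0.19 for B6 minus NZW, against -0.36 and -0.14 by the brighter one. The two-sample test gave 2 called members for B6 minus NZW and 0 in the other comparisons, and at an unadjusted p below 0.05 it gave 4 (B6 minus NZW), 1 (BALB/c minus DBA1), 2 (BALB/c minus 129/svj), 1 (DBA1 minus 129/svj) and 2 (averaged difference), beside 28.5%, 17.2%, 14.1%, 11.3% and 8.89% of all tested probes. Other changes of sign concerned only differences that were not called. With 75th percentile scaling they were Gpx3 (-0.12), Gpx4 (-0.23) and Prdx3 (-0.0058) for B6 minus NZW, and Gpx4 for BALB/c minus DBA1 (0.050) and for the difference of effects (0.27). Joint normalization gave -0.038 for the dimmer Sod1 probe (B6 minus NZW) and 0.0070 for Gpx4 (BALB/c minus DBA1). The two-sample test gave 0.087 for Gpx4 and 0.073 for Gpx1 in the averaged difference. Prdx3 in the difference of effects was -0.012 with separate normalization and -0.0012 without the second arrays. Without single mice, for B6 minus NZW, Gpx3 ran from -0.021 to 0.15 and the dimmer Sod1 probe from -0.12 to 0.16. For BALB/c minus DBA1, that Sod1 probe ran from -0.00018 to 0.36 and Gpx4 from -0.15 to 0.034. For BALB/c minus 129/svj, it ran from -0.083 to 0.28, Sod3 from -0.19 to 0.012 and Gpx1 from -0.17 to 0.014. For DBA1 minus 129/svj, Gpx4 ran from -0.14 to 0.049 and Prdx3 from -0.13 to 0.014. In the averaged difference, the dimmer Sod1 probe ran from -0.037 to 0.16, Gpx4 from -0.034 to 0.017 and Gpx1 from -0.058 to 0.029. In the difference of effects, Gpx4 ran from -0.091 to 0.013 and Prdx3 from -0.056 to 0.083. The cause was not tested. Slide as a block could not be run, since the files name no slides.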
